A study of Mus musculus with 4 samples.

Results

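The genes described here encode the subunits, regulators and assembly factors of the proteasome, the protease complex that degrades ubiquitin-tagged proteins. They were chosen by symbol: every gene whose platform symbol begins with Psm, a letter from a to g and a number, measured by a probe set that carries that symbol alone. The pattern matched 50 symbols among 17527 named genes. The pseudogenes Psmb5-ps and Psmb6-ps were left out, which gave 48 genes. Of these, Psmc3ip, a meiotic recombination factor, and Psme3ip1, whose product binds an activator of the proteasome, share the symbol without being subunits and are given apart, so 46 proteasome genes remain. A gene is called expressed where its mean over all arrays was at or above 7.19 log2 units, the median of the named genes. This held for 43 of the 46, and Psmb11, Psmg3 and Psmf1 lay under this floor. Psmb5 and Psme2 are not described, because their probe sets carry several symbols.

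The samples were microglia, the resident macrophages of the brain. They came from the whole brain of C57BL/6J mice, all male. The groups were OVA at P70, PBS at P70, OVA at P30 and PBS at P30, where OVA is the allergy group, PBS is the control group and P is the postnatal day. The challenge was given through the nose 1 day before collection, and each group is a pool of 4 samples. Each group was hybridised to 1 array, so there was no spread within a group, no test could be made, and every difference is a log2 difference between 2 arrays. A gene was counted as higher or lower where it differed by at least 1.5-fold, which is 0.585 log2 units.

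A barrel of 4 stacked rings, the 20S core, holds the proteolytic sites. Its outer rings are built from alpha subunits, which gate the channel, and its inner rings from beta subunits, of which Psmb5, Psmb6 and Psmb7 encode the catalytic ones. In cells exposed to interferon gamma, and in many immune cells at rest, the catalytic subunits Psmb8, Psmb9 and Psmb10 take their places and form the immunoproteasome, known for producing peptides for major histocompatibility complex (MHC) class I molecules. The 19S regulatory particle caps the core: its base carries a ring of ATPases that unfolds substrates, and its lid removes ubiquitin. Dedicated chaperones assist assembly of the core and of the base, and PA28 and PA200 are alternative caps. In microglia, as in other macrophages, the proteasome also degrades the inhibitors that hold NF-kB in the cytoplasm.

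All 9 microglia markers found on the arrays were expressed, among them Cx3cr1, P2ry12 and Tmem119, whereas none of the 5 neuron and 2 erythroid markers was. Other lists were expressed in part: 1 of 5 astrocyte markers (Slc1a3), 1 of 4 oligodendrocyte markers (Mag), 2 of 5 endothelial markers (Ly6c1 and Pecam1) and 1 of 4 choroid plexus markers (Ttr). Of lymphoid and dendritic markers, 3 of 9 for T and NK cells, 1 of 5 for B cells and 2 of 6 for dendritic cells were expressed. The median intensity over all probe sets was 105 in OVA and 111 in PBS at P70, and 132 in OVA and 131 in PBS at P30. The highest value on an array was between 19.74 and 19.93 log2 units, and the highest of a proteasome gene was 14.73.

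**Figure D1:**
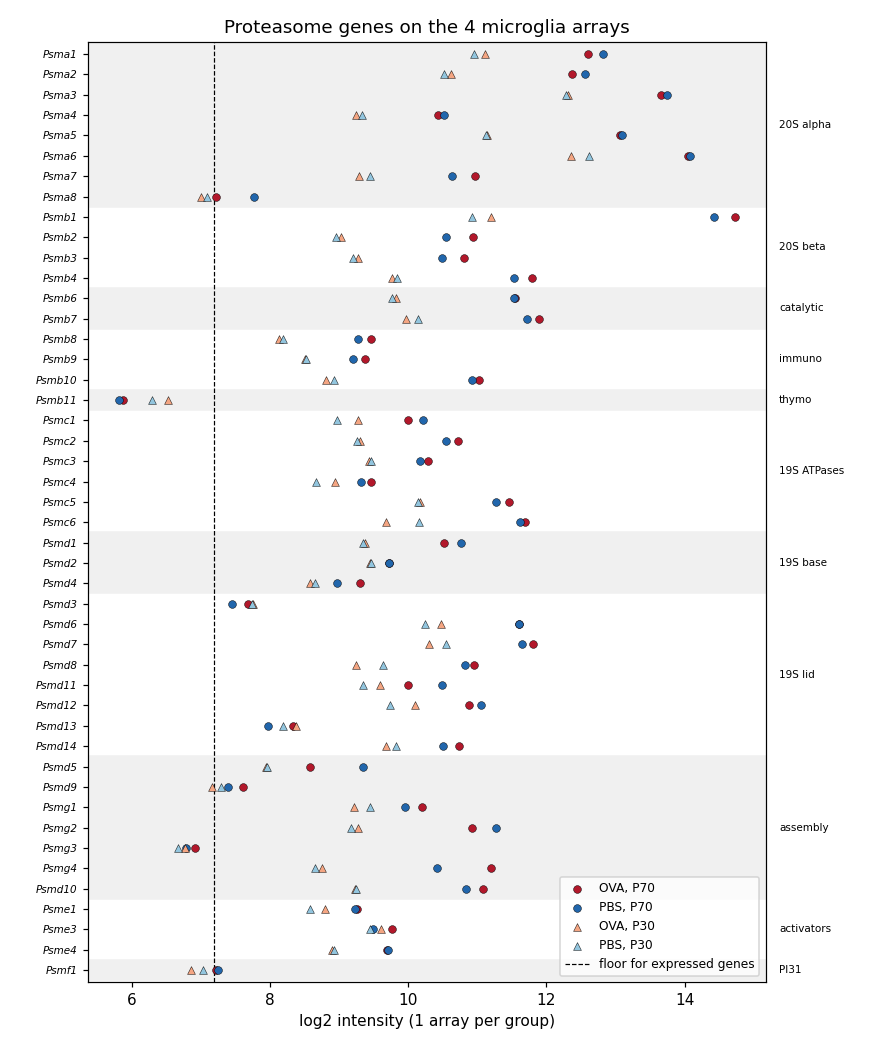
The log2 intensity of each of the 46 proteasome genes (x axis) is shown by gene (y axis, grouped by role, the names of the roles at the right), with circles for the P70 arrays and triangles for the P30 arrays, OVA in red tones and PBS in blue tones. The dashed line is the floor of 7.19. For most genes both circles lie to the right of both triangles, and the OVA and PBS symbols of 1 age lie close together.

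Among the proteasome genes, the arrays of the 2 ages differed far more than those of the 2 treatments. In OVA microglia, 34 of the 43 expressed proteasome genes were at least 1.5-fold higher at P70 than at P30 and none was lower, with a median difference of 1.28. Of all 8764 expressed genes, 38.6% were higher and 4.4% lower by that much in OVA, and their median difference was 0.39. In PBS microglia, 36 of the 43 were higher at P70 and none was lower, with a median difference of 1.25, whereas 29.1% of all expressed genes were higher, 3.02% were lower and their median was 0.26. The 36 include Psma8, which passed the floor only through its P70 values. Psmd3 and Psmd13 were the 2 expressed genes whose P70 values were below those at P30 in both treatments. Age differences in OVA and in PBS rest on separate arrays, and across the 43 genes they correlated at r = 0.88, as they did across all expressed genes (r = 0.88). The genes share the 4 arrays, so these values are a description.

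**Figure D2:**
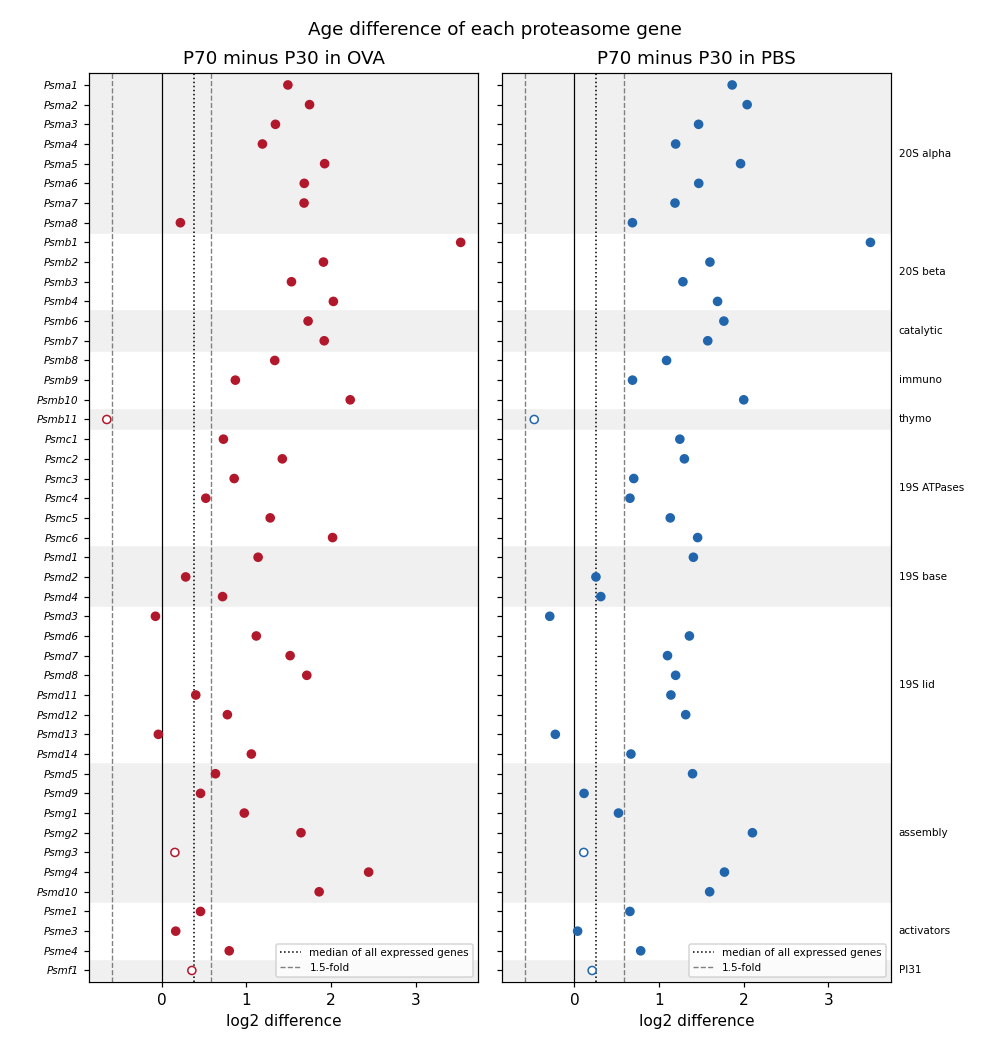
The log2 difference of P70 minus P30 (x axis) is plotted for each proteasome gene (y axis), in OVA at the left and in PBS at the right. Open circles are the genes under the floor, the dotted line is the median of all expressed genes and dashed lines mark 1.5-fold. Psmb1 lies farthest to the right in both panels (3.53 and 3.50), and Psmd3 and Psmd13 lie left of 0.

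Markers of other cells moved with age, where 38.6% of all expressed genes in OVA and 29.1% in PBS were at least 1.5-fold higher at P70. Of 11 expressed neutrophil markers, 10 were at least 1.5-fold higher at P70 in OVA and 10 in PBS. Both counts include Mmp9, which passed the floor only through its P70 values (7.84 in OVA and 7.78 in PBS). The summed log2 level of the 13 neutrophil markers found was 19.53 in OVA and 19.76 in PBS at P70, against 14.52 in OVA and 16.12 in PBS at P30. Monocyte markers were higher at P70 for 6 of 8 in OVA and 5 of 8 in PBS, with summed levels of 14.59 and 14.42 at P70 against 11.22 and 11.13 at P30. The 6 in OVA include Treml4, which passed the floor only through its P70 OVA value (8.05). Border-associated macrophage markers were higher for 6 of 8 in OVA and 3 of 8 in PBS, with summed levels of 13.28 and 11.95 at P70 against 11.41 and 11.58 at P30. The expressed lymphoid and dendritic markers went both ways. Gzma (0.85 in OVA and 0.92 in PBS), Cd79b (0.28 and 0.77) and Cd209a (2.83 and 1.85) were above their P30 values. Ccr7 (-0.90 and -0.21), Cd3g (-0.45 and -0.52) and Nkg7 (-0.40 and -0.13) were below. Cd209a is also on the border-associated macrophage list, and Gzma passed the floor only through its P70 values (7.88 in OVA and 7.62 in PBS). No marker was at 0. Of the 9 microglia markers, 5 were higher at P70 in OVA and 5 in PBS, where 1 was lower, with summed levels of 19.31 and 19.24 at P70 against 18.89 and 19.002 at P30. The part of these cells in the age difference of the proteasome genes was not tested, and in pooled material more cells of a type and more RNA per cell cannot be told apart. Age and anything else that differed between the arrays of the 2 ages cannot be told apart either.

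The alpha ring genes Psma1 to Psma7 were all at least 1.5-fold higher at P70 in both treatments. Of all expressed genes, 38.6% in OVA and 29.1% in PBS were. Psma2 stood at 12.37 in OVA and 12.56 in PBS at P70, against 10.62 in OVA and 10.52 in PBS at P30, which is 3.35-fold and 4.11-fold. Psma5 stood at 13.06 in OVA and 13.09 in PBS at P70, against 11.14 and 11.13 at P30 in the same order. Both P70 values of each gene lay above both P30 values. Psma6 stood at 14.04 in OVA and 14.08 in PBS at P70, against 12.36 in OVA and 12.61 in PBS at P30. Psma3 stood at 13.66 in OVA and 13.75 in PBS at P70, against 12.32 in OVA and 12.29 in PBS at P30. In each of these too, the P70 arrays lay above the P30 arrays. Psma4 had the smallest difference among the 7 genes in OVA, 1.19, and Psma7 the smallest in PBS, also 1.19. Psma7 stood at 10.97 in OVA and 10.63 in PBS at P70, against 9.29 in OVA and 9.45 in PBS at P30. Psma1 stood at 12.60 in OVA and 12.82 in PBS at P70, against 11.11 in OVA and 10.96 in PBS at P30. Psma8, the testis counterpart of Psma7, barely passed the floor: it was at 7.22 in OVA and 7.77 in PBS at P70, against 7.00 and 7.09 at P30. Of its 4 values, only the P70 PBS one and the P70 OVA one lay above the floor.

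The beta ring held the largest age difference of the proteasome genes. Psmb1, a non-catalytic subunit, stood at 14.73 in OVA and 14.42 in PBS at P70, against 11.20 in OVA and 10.92 in PBS at P30. This is 11.6-fold in OVA and 11.3-fold in PBS. Psmb4, also non-catalytic, stood at 11.79 in OVA and 11.53 in PBS at P70, against 9.76 in OVA and 9.84 in PBS at P30. Psmb3 stood at 10.81 in OVA and 10.49 in PBS at P70, against 9.28 in OVA and 9.21 in PBS at P30. Psmb2 stood at 10.93 in OVA and 10.55 in PBS at P70, against 9.02 in OVA and 8.95 in PBS at P30. These 3 non-catalytic members differed by 1.53 to 2.03 in OVA and by 1.28 to 1.69 in PBS. The constitutive catalytic genes differed by 1.73 (Psmb6) and 1.92 (Psmb7) in OVA and by 1.77 and 1.58 in PBS. Psmb6, which encodes the caspase-like site, was at 11.55 in OVA and 11.54 in PBS at P70, against 9.82 and 9.77 at P30. Psmb7, which encodes the trypsin-like site, was at 11.89 in OVA and 11.71 in PBS at P70, against 9.97 and 10.14 at P30.

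The immunoproteasome genes were also higher at P70, to unequal degrees. Psmb10 stood at 11.03 in OVA and 10.92 in PBS at P70, against 8.81 in OVA and 8.92 in PBS at P30, or 4.68-fold and 4.00-fold. Psmb8 stood at 9.46 in OVA and 9.28 in PBS at P70, against 8.13 and 8.19 at P30, or 2.52-fold and 2.13-fold. Psmb9 stood at 9.37 in OVA and 9.20 in PBS at P70, against 8.50 and 8.52 at P30, or 1.83-fold and 1.61-fold. In both treatments the 3 genes kept the order Psmb10, Psmb8, Psmb9. Psmb10 differed by more than its constitutive counterpart Psmb7 (1.92 in OVA and 1.58 in PBS), and Psmb9 by less than its counterpart Psmb6 (1.73 and 1.77).

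The 19S particle was higher at P70 as well, with smaller median differences than the core. Of its 6 ATPase genes, all were at least 1.5-fold higher in PBS and 5 in OVA, beside 29.1% and 38.6% of all expressed genes. Psmc6 had the largest differences, 2.02 in OVA and 1.46 in PBS, and Psmc4 the smallest, 0.52 and 0.66. Psmc6 was at 11.69 in OVA and 11.61 in PBS at P70, against 9.68 in OVA and 10.16 in PBS at P30, so its P30 arrays lay farther apart than its P70 arrays. Psmc4 stood at 9.46 in OVA and 9.32 in PBS at P70, against 8.94 in OVA and 8.66 in PBS at P30. Psmc1 stood at 9.995 in OVA and 10.22 in PBS at P70, against 9.27 in OVA and 8.97 in PBS at P30. The other ATPase genes Psmc2 (1.42 in OVA and 1.30 in PBS), Psmc3 (0.86 and 0.70) and Psmc5 (1.28 and 1.13) lay between Psmc4 and Psmc6. Among the other base subunits, the scaffold gene Psmd1 differed by 1.14 in OVA and 1.41 in PBS, the scaffold gene Psmd2 by 0.28 and 0.25, and the ubiquitin receptor gene Psmd4 by 0.72 and 0.31. Psmd2 stood at 9.73 in OVA and 9.72 in PBS at P70, against 9.44 in OVA and 9.46 in PBS at P30, so its 4 values spanned less than those of Psmd1. Psmd1 stood at 10.51 in OVA and 10.76 in PBS at P70, against 9.37 in OVA and 9.35 in PBS at P30. Its P70 and P30 values did not overlap. Psmd4 stood at 9.30 in OVA and 8.97 in PBS at P70, against 8.58 in OVA and 8.66 in PBS at P30.

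The lid was divided. Psmd6, Psmd7, Psmd8, Psmd12 and Psmd14, of which Psmd14 encodes the deubiquitinase, were at least 1.5-fold higher at P70 in both treatments. The shares of all expressed genes were 38.6% in OVA and 29.1% in PBS. Psmd8 stood at 10.95 in OVA and 10.82 in PBS at P70, against 9.24 in OVA and 9.63 in PBS at P30. Psmd6 stood at 11.60 in OVA and 11.61 in PBS at P70, against 10.48 in OVA and 10.25 in PBS at P30. In both, the P70 arrays lay above the P30 arrays. Psmd12 stood at 10.88 in OVA and 11.06 in PBS at P70, against 10.10 in OVA and 9.74 in PBS at P30. Psmd7 differed by 1.52 in OVA and 1.10 in PBS, and Psmd14 by 1.06 and 0.67. Psmd11 was past 1.5-fold in PBS, at 1.14, and not in OVA, at 0.40, and the difference between these was not tested. Psmd3 stood at 7.68 in OVA and 7.45 in PBS at P70, against 7.75 and 7.74 at P30. Psmd13 stood at 8.33 in OVA and 7.97 in PBS at P70, against 8.37 and 8.19 at P30. In both genes the OVA arrays of the 2 ages lay within 0.1 log2 units of each other.

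Over the whole 20S core, 16 of 17 expressed genes in OVA and 17 of 17 in PBS were higher at P70, with medians of 1.68 and 1.58. Of all expressed genes, 38.6% in OVA and 29.1% in PBS were higher by that much. Psma8 is among the 17, and it passed the floor only through its P70 values (7.22 in OVA and 7.77 in PBS). Over the 19S particle the counts were 12 of 17 in OVA and 13 of 17 in PBS, with medians of 0.86 and 1.13. The ranges overlapped, from 0.22 to 3.53 for the core and from -0.07 to 2.02 for the 19S particle in OVA, and the contrast between core and cap was not tested.

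Assembly factors were among the genes with the largest age differences. Psmg4, a chaperone of the alpha ring, stood at 11.20 in OVA and 10.42 in PBS at P70, against 8.75 in OVA and 8.65 in PBS at P30, or 5.44-fold and 3.42-fold. Psmg2, whose product also assists the alpha ring, stood at 10.92 in OVA and 11.27 in PBS at P70, against 9.28 and 9.17 at P30. Psmd10 stood at 11.09 in OVA and 10.84 in PBS at P70, against 9.23 in OVA and 9.24 in PBS at P30. Psmd10, encoding the base chaperone gankyrin, differed by 1.86 in OVA and 1.60 in PBS, and Psmg1 by 0.97 and 0.52. Psmd9, also a base chaperone, differed by 0.46 and 0.11, the least of the expressed assembly genes. Psmd9 stood at 7.61 in OVA and 7.40 in PBS at P70, against 7.15 in OVA and 7.28 in PBS at P30. Psmg1 stood at 10.20 in OVA and 9.96 in PBS at P70, against 9.22 in OVA and 9.44 in PBS at P30. Psmd5 stood at 8.58 in OVA and 9.35 in PBS at P70, against 7.94 in OVA and 7.96 in PBS at P30, so it too was past 1.5-fold in both treatments. Psmg3 was under the floor on every array, between 6.67 and 6.92.

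The alternative caps differed among themselves. Psme1, a subunit of the PA28 form induced by interferon gamma, stood at 9.25 in OVA and 9.23 in PBS at P70, against 8.80 in OVA and 8.58 in PBS at P30. Psme3, which encodes the nuclear form of PA28, stood at 9.77 in OVA and 9.49 in PBS at P70, against 9.61 and 9.45 at P30. Psme4, encoding PA200, stood at 9.70 in OVA and 9.71 in PBS at P70, against 8.90 and 8.93 at P30. Psme4 was thus 1.74-fold and 1.72-fold higher at P70, and Psme3 differed by 0.16 and 0.04. Psmf1, which encodes the regulator PI31, lay between 6.86 and 7.25. The thymoproteasome gene Psmb11, known from the thymic cortex, lay between 5.81 and 6.53, under the floor on every array. Of the genes that share the symbol alone, Psmc3ip lay between 7.30 and 7.44, and Psme3ip1 differed by 0.56 in OVA and 0.37 in PBS.

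The size of the age difference went with the level. Across all expressed genes the rank correlation of level with age difference was 0.57 in OVA and 0.49 in PBS, and across the 43 proteasome genes it was 0.70 in both, as a description. Among expressed genes at a mean level from 10 to 11, the median age difference was 0.99 in OVA and 0.76 in PBS, and the 12 proteasome genes in that band had medians of 1.70 and 1.41. From 9 to 10, all expressed genes had medians of 0.71 and 0.52, and the 15 proteasome genes 0.97 and 1.20.

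**Figure D3:**
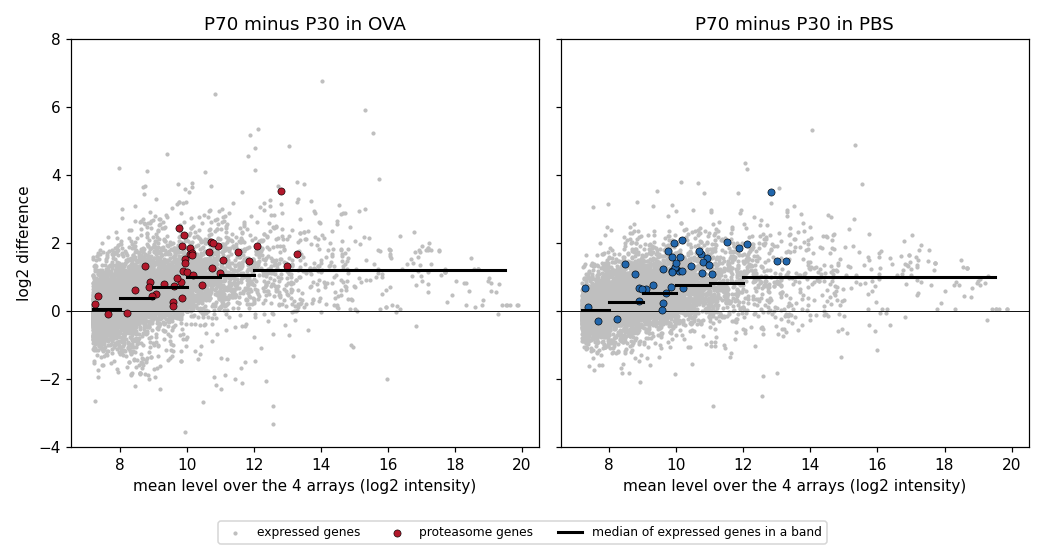
The log2 difference of P70 minus P30 (y axis) is plotted against the mean level over the 4 arrays (x axis, log2 intensity), in OVA at the left and in PBS at the right. Grey points are the 8764 expressed genes, coloured points the 43 proteasome genes, and black bars the median of all expressed genes in each band of level. The bars climb with level, and most proteasome genes lie above the bar of their band.

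The counts depended on the scaling. With each array centred on its median, 26 of the 43 genes in OVA and 29 in PBS were at least 1.5-fold higher at P70 (all expressed genes: 19.6% and 17.3% higher, 14.2% and 8.57% lower). With the differences centred along the level by a lowess curve, 16 in OVA and 21 in PBS were higher (all expressed genes: 13.3% and 11.6% higher, 10.9% and 8.83% lower), and the medians were 0.39 and 0.56. With quantile normalization 34 in OVA and 31 in PBS were higher (38.1% and 27.8% higher, 3.37% and 2.83% lower). Under lowess centring the core had medians of 0.74 in OVA and 0.77 in PBS, and the 19S particle 0.08 and 0.37. Psmb1 (2.39 in OVA and 2.56 in PBS) and Psmb10 (1.38 and 1.37) stayed past 1.5-fold, whereas Psmb9 (0.28 and 0.29) did not. With lowess, 9 of the 43 genes in OVA and 7 in PBS had values below 0, against 2 and 2 as deposited. Of the genes past 1.5-fold as deposited, the sign turned for Psmc1 (-0.04) and Psmd12 (-0.18) in OVA and for Psmd14 (-0.01) in PBS. Of the others, it turned for Psmc4 (-0.14), Psmd2 (-0.47), Psmd11 (-0.41), Psme1 (-0.16) and Psme3 (-0.62) in OVA. In PBS it turned for Psmd2 (-0.30), Psmd4 (-0.07), Psme3 (-0.49) and Psmg1 (-0.06). Of the genes that were higher as deposited, 16 of 34 in OVA and 20 of 36 in PBS were past 1.5-fold under all 3 other scalings.

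**Figure D4:**
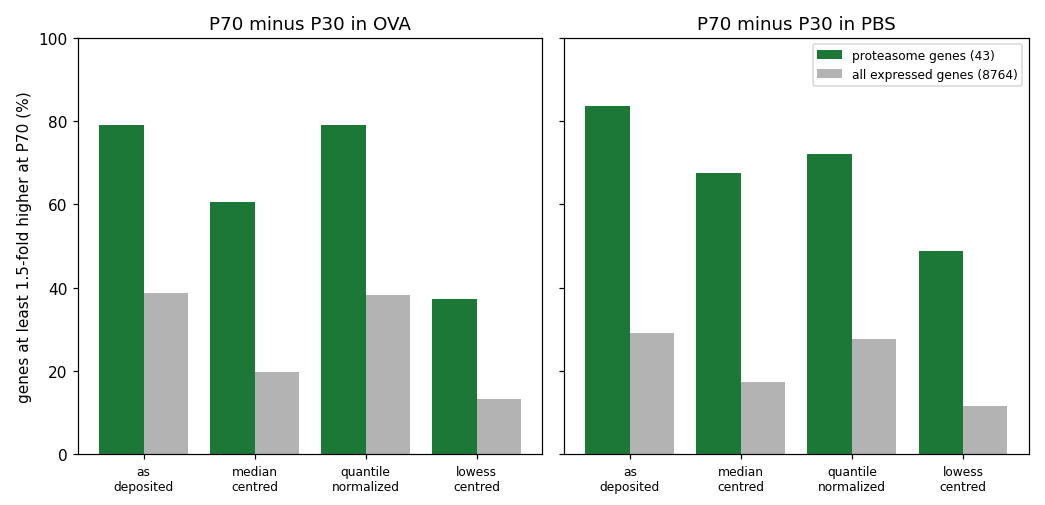
Bars give the percentage of genes at least 1.5-fold higher at P70 than at P30 (y axis, from 0) under 4 scalings (x axis), green for the 43 expressed proteasome genes and grey for all 8764 expressed genes, in OVA at the left and in PBS at the right. The green bar is taller than the grey one under each scaling, and lowest under lowess centring (37.2% in OVA and 48.8% in PBS).

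Genes of other large complexes were set beside them. The nuclear-encoded oxidative phosphorylation genes, 76 of them expressed, had medians of 1.34 in OVA and 1.17 in PBS, against 1.28 and 1.25 for the proteasome genes. The 40 expressed cytosolic ribosomal protein genes had medians of 1.21 and 1.17, and the 66 mitochondrial ribosomal protein genes 0.86 and 0.63. After lowess centring, oxidative phosphorylation genes had medians of 0.51 in OVA and 0.59 in PBS, close to those of the proteasome genes. These 3 sets were chosen by symbol after the values were seen.

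Most measured partners of the proteasome outside the symbol rule were higher as well. Of 8 (Adrm1 and Paaf1 were not among them), 6 in OVA and 5 in PBS were at least 1.5-fold higher at P70. Pomp, the maturation factor of the core, stood at 13.87 in OVA and 13.82 in PBS at P70, against 12.06 in OVA and 11.89 in PBS at P30. Shfm1, the platform's symbol for the lid subunit gene Sem1, differed by 2.18 and 1.83, and Uchl5, a deubiquitinase bound to the base, by 1.52 and 1.56. Zfand5, which encodes a ubiquitin-binding activator of the proteasome, had the opposite sign, -0.69 in OVA and -0.38 in PBS. Of 6 expressed ubiquitin and shuttle genes, 2 in OVA and 1 in PBS were higher, no larger a share than that of all expressed genes (38.6% and 29.1%): Ufd1l in both (0.85 and 1.11) and Rad23b in OVA (0.73).

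Of 6 expressed genes of the Nrf1 and Nrf2 control of proteasome genes, 2 in OVA and none in PBS were at least 1.5-fold higher at P70, beside 38.6% and 29.1% of all expressed genes. Nfe2l1, which encodes the transcription factor Nrf1 that raises proteasome subunit genes when the proteasome is inhibited, stood at 9.87 in OVA and 9.82 in PBS at P70, against 9.80 in OVA and 9.82 in PBS at P30. Nfe2l2 differed by 0.61 in OVA and 0.49 in PBS, and Ngly1, whose product activates Nrf1, by 0.81 and 0.57. The core letters of the antioxidant response element that Nrf1 and Nrf2 bind, TGACNNNGC on either strand, lay in the 250 bases before the start of 4 of 38 proteasome genes with a RefSeq promoter (10.5%). Among all 27025 genes with a promoter the share was 10.1%. CCAAT lay before 36.8% of the proteasome genes and 34.5% of all genes, and the core of the interferon-stimulated response element (GAAA, any 2 bases, GAAA) before 7.89% and 3.04%. Those 3 proteasome genes were Psmb3, Psmd4 and Psmd9, and no immunoproteasome gene was among them. N stands for any base, all motifs were searched on both strands, and a match is a description of letters.

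Genes of MHC class I peptide loading, which the immunoproteasome serves, were near the background. Of 10 expressed, 4 in OVA and 4 in PBS were at least 1.5-fold higher at P70, beside 38.6% and 29.1% of all expressed genes: H2-K1 (1.25 in OVA and 1.13 in PBS), H2-D1 (1.32 and 1.22), B2m (1.92 and 2.23) and Erap1 (1.44 and 0.65). The peptide transporter gene Tap1, the neighbour of Psmb9 and Psmb8, stood at 8.62 in OVA and 8.47 in PBS at P70, against 8.34 and 8.46 at P30. Among 13 expressed interferon regulators and targets, 4 in OVA and 3 in PBS were higher, shares below those of all expressed genes. Isg15 was lower at P70 in both (-0.66 in OVA and -0.88 in PBS), with P70 values under the floor. Irf1, a regulator of the immunoproteasome genes, lay between 7.19 and 7.27, at the floor of 7.19, which limits what its values can show. Tap1 and Irf1 were singled out after their values were seen.

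Tap1 and Psmb9 are transcribed in opposite directions from starts 226 bases apart. A search of RefSeq promoters found 6 proteasome genes with such a head-to-head neighbour within 500 bases, all measured, which allowed a member to be set beside a gene that starts nearby on the other strand. Psma2 differed by 1.75 in OVA and 2.04 in PBS, and its neighbour Mrpl32 by 0.50 and 0.59. Psmb9 differed by 0.87 and 0.69, and Tap1 by 0.28 and 0.01. Psmc5 differed by 1.28 and 1.13, and Ftsj3 by 0.20 and 0.13. Psmd10 differed by 1.86 and 1.60, and Atg4a by 1.01 and 0.93. Psma7 differed by 1.68 and 1.19, and Ss18l1, under the floor, by -0.14 and -0.05. In these 5 pairs the age difference of the proteasome gene exceeded that of its neighbour in both treatments. In the remaining pair, Psmd13 differed by -0.04 in OVA and -0.23 in PBS, and Sirt3, under the floor, by 0.19 and 0.12. In all 6 pairs the proteasome gene had the higher mean level, and across all expressed genes the age difference rose with the level. The part of level in these pairs was not tested.

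The stretches between the genes are shown for the genes of the 6 with the highest and the lowest age difference in PBS, Psma2 and Psmd13, and for the immunoproteasome gene, chosen after the values were seen. They are given 5′ to 3′ on the strand of the proteasome gene and end just before its start, from RefSeq on GRCm38.p6. Capitals mark CCAAT on either strand. The Psma2 stretch is chr13:14613038-14613241 on the plus strand, the Psmb9 stretch chr17:34187331-34187555 on the minus strand and the Psmd13 stretch chr7:140882310-140882393 on the plus strand.
Psma2: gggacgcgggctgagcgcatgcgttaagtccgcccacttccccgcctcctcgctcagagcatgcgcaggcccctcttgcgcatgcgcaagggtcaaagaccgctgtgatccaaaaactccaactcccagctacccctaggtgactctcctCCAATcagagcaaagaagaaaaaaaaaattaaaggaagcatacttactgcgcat
Psmb9: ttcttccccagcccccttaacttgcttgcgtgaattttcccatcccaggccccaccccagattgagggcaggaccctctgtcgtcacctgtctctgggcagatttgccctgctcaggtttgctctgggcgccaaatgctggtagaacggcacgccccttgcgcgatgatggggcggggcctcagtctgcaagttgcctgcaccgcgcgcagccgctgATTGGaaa
Psmd13: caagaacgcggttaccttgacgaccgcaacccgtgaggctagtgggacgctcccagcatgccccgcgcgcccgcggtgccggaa
The Psma2 and Psmb9 stretches each hold 1 CCAAT, and the Psmd13 stretch holds none of the 3 motifs searched.

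The comparison of OVA with PBS at P30 asked whether microglia of the allergy group differed at the younger age. None of the 43 expressed proteasome genes differed by 1.5-fold in either direction, where 1.56% of all expressed genes did (0.662% higher and 0.901% lower). The count was 0 under the other scalings too, where 1.55% (median centring), 1.53% (lowess) and 1.92% (quantile) of all expressed genes differed. The median difference was 0.01, against -0.01 for all expressed genes, and the range was from -0.48 to 0.36. Psmc6 was lowest, at 9.68 in OVA and 10.16 in PBS, followed by Psmd8 (9.24 and 9.63) and Psma6 (12.36 and 12.61). Psmd12 was highest, at 10.10 in OVA and 9.74 in PBS, followed by Psmc1 (9.27 and 8.97) and Psmc4 (8.94 and 8.66). Psmc1, Psmc4 and Psmc6 encode ATPases of 1 ring and lay at both ends.

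The immunoproteasome genes were close to equal at P30, with differences of -0.06 for Psmb8, -0.01 for Psmb9 and -0.12 for Psmb10. The activator gene Psme1 differed by 0.22. Neutrophil markers were lower in OVA at this age, 7 of 11 by at least 1.5-fold, and Ttr was higher in OVA (9.32 in OVA and 7.45 in PBS). The part of these cells in the values of the proteasome genes at P30 was not tested. The partner Zfand5 was 0.76 higher in OVA (10.46 in OVA and 9.70 in PBS), the sole one of 8 partners past 1.5-fold.

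At P70, 1 proteasome gene was at least 1.5-fold higher in OVA and 1 was lower, or 2 of 43, where 5.26% of all expressed genes differed (4.02% higher and 1.24% lower). On the deposited scale the share is near this background. The higher gene was Psmg4, at 11.20 in OVA and 10.42 in PBS, which is 1.71-fold. The lower gene was Psmd5, a base chaperone that is released from the finished proteasome, at 8.58 in OVA and 9.35 in PBS, also 1.71-fold. With median centring, 1 proteasome gene was higher and 3 were lower (6.98%, with Psma8 and Psmd11 beside Psmd5), where 2.34% of all expressed genes were higher and 2.07% lower. With lowess, 1 was higher and 2 were lower (4.65%, Psmd5 and Psmd11), where the shares were 1.96% and 1.92%. With quantile normalization, 1 was higher and 1 lower, where the shares were 5.2% and 0.719%. Psmg4 and Psmd5 stayed past 1.5-fold under these 3 scalings, Psmg4 between 0.60 and 0.91 and Psmd5 between -0.90 and -0.69. After them came Psmb2 (0.38), Psmd13 (0.36) and Psma7 (0.33) on one side and Psma8 (-0.55), Psmd11 (-0.49) and Psmg2 (-0.35) on the other.

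The median difference at P70 was 0.13, against 0.09 for all expressed genes, and it was -0.04 after lowess centring. The 4 non-catalytic beta genes lay close together, between 0.26 for Psmb4 and 0.38 for Psmb2. The alpha ring genes had a median of -0.09 and ran from -0.55 (Psma8, near the floor) to 0.33 (Psma7), so the 2 ranges overlapped. With lowess centring the non-catalytic beta genes lay between 0.08 and 0.21, and the alpha ring genes had a median of -0.27. The immunoproteasome genes Psmb8, Psmb9 and Psmb10 differed by 0.18, 0.17 and 0.11, and Psme1 by 0.02. With lowess centring the 3 immunoproteasome genes lay between -0.07 and 0.03. Border-associated macrophage markers were higher in OVA at this age, 5 of 8 expressed by at least 1.5-fold. So were 2 of 8 monocyte markers (S100a4 by 1.16 and Treml4 by 0.97) and the astrocyte marker Slc1a3 (0.70). Treml4 passed the floor only through its P70 OVA value (8.05). The choroid plexus marker Ttr stood at 12.02 in OVA and 7.90 in PBS, a difference of 4.12. Neutrophil markers went both ways at P70. Mmp8 (-1.46) and Retnlg (-0.85) were at least 1.5-fold lower in OVA. Others, such as Ltf (0.48) and Ly6g (0.34), were above PBS, none of them by 1.5-fold. The part of those cells in the differences of Psmg4 and Psmd5 was not tested. None of the 8 partners and none of the 10 class I loading genes differed by 1.5-fold between OVA and PBS at P70.

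**Figure D5:**
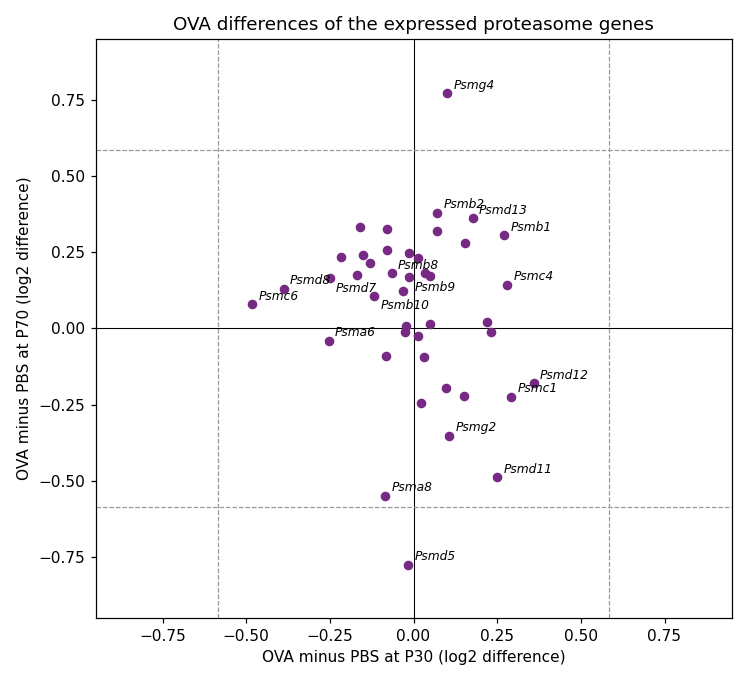
Each point is 1 of the 43 expressed proteasome genes, placed by its OVA minus PBS difference at P30 (x axis) and at P70 (y axis), both in log2 units. Dashed lines mark 1.5-fold. No point passes a dashed line along the x axis, and Psmg4 (0.77) and Psmd5 (-0.78) pass along the y axis.

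Setting both ages side by side asked whether OVA departed from PBS alike at P30 and at P70. The 2 differences rest on separate arrays and were close to unrelated across the 43 genes (r = -0.15). Of the 43 genes, 12 were above PBS at both ages, 5 below at both, 10 above at P30 and below at P70, and 16 below at P30 and above at P70. In percent these are 27.9, 11.6, 23.3 and 37.2, beside 29.9, 18.5, 16.4 and 35.1 for all expressed genes. The signs depended on the scaling. Of the 43, 28 were above PBS at P70 as deposited, 24 with median centring, 18 with lowess and 30 with quantile normalization. The shares of all expressed genes were 65.0%, 48.4%, 50.3% and 73.2% in the same order. The difference between the OVA differences, P70 minus P30, was at least 0.585 in size for 3 of 43 genes, where 10.1% of all expressed genes reached it (7.8% higher and 2.29% lower). With median centring, 0 proteasome genes were higher and 5 lower (11.6%), where the shares of all expressed genes were 4.45% and 4.03%. With lowess, 0 were higher and 6 lower (14.0%), where the shares were 3.96% and 3.56%. With quantile normalization, 2 were higher and 2 lower, where the shares were 8.76% and 2.1%. Psmd5 and Psmd11 were among the lower genes under each of these, and Psmg4 was below 0.585 with median centring (0.55) and lowess (0.48). As deposited, the 3 genes were Psmg4 (0.67), Psmd5 (-0.76) and Psmd11 (-0.74). Psmd11, a lid subunit, stood at 10.001 in OVA and 10.49 in PBS at P70, and at 9.60 in OVA and 9.35 in PBS at P30. Next were Psmc6 (0.56) and Psmd8 (0.52) on the positive side and Psmd12 (-0.54) and Psmc1 (-0.52) on the negative side.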

How the data were processed

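Arrays of pooled microglia from 4 groups were used. The authors deposited 1 linear intensity for each probe set of an array, not log2 values. RMA and, for software, Affymetrix Expression Console 1.4.1 are listed in the submitters' processing notes, with no role. The scaling between arrays and the genome build are not given in the sources used here. The number of arrays limits the precision.

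Log2 values were computed from the 65956 probe sets with no further normalization. Of these, 30604 carried 1 gene symbol, 2146 several and 33206 none here. The symbols of 827 were updated through Entrez IDs with RefSeq names (GRCm38.p6). Predicted or clone-named genes, small RNAs, chemosensory receptors and segments of antigen receptors accounted for 12841 probe sets that were not used. The brightest probe set stood for a gene; no proteasome gene had more than 1. Levels of different probe sets are not compared, other than in bands of level and in the head-to-head pairs. Named genes were all members, by role, with the extremes of each comparison, and up to 4 genes of each pathway list. The members and lists were chosen with earlier results of these data known. Alternatives were median centring, quantile normalization, lowess centring (statsmodels 0.14.6, fraction 0.3), the filter (none, or 8.45), the mean of probe sets, an offset of 64 intensity units, and counting the genes that share the symbol alone. The steps were tested on simulated data.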

Additional observations from a re-analysis of the deposited data

Results flagged for a closer look

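The OVA minus PBS difference had opposite signs at P70 and at P30 in 26 of the 43 expressed proteasome genes. Of the 43, 23.3% were higher at P30 and lower at P70, beside 16.4% of all expressed genes. The reverse held for 37.2%, beside 35.1% of all expressed genes. Many of these differences were small, such as those of Psma5 (0.01 at P30 and -0.03 at P70). Psmd11 had the largest such contrast: it was lower in OVA than in PBS at P70 (-0.49) and higher at P30 (0.25), a difference of -0.74 between the ages. With 1 array per group, these differences were not tested. The sign counts are on the deposited scale, and the number of genes above PBS at P70 depended on the scaling.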

How the results depend on the processing

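No paired analysis was possible because each group had 1 array, and for the same reason no replicate could be left out. The counts and medians of the OVA comparison at P30 did not move by more than 0.1 log2 units or 1.5 times under 7 alternatives. The mean of probe sets is not among these 7. It left the values of each proteasome gene as they were, since each had 1 probe set, but the floor was set anew. At P70 the OVA median of 0.13 was 0.0289 with median centring and -0.0401 with lowess centring, and the lower genes numbered 3 and 2. The age median in OVA (1.28) was 0.86 with median centring, 0.39 with lowess, 1.17 with quantile normalization, 1.16 with no filter and 1.16 with the offset. That in PBS (1.25) was 0.95, 0.56 and 1.08 with the first 3. Lowess left 16 higher genes in OVA and 21 in PBS. With lowess 1 gene was lower in OVA, with no filter 1 in OVA, and with median centring 1 in PBS. For the difference of the OVA differences, the median of 0.15 was 0.0286 with median centring and -0.072 with lowess. The higher genes numbered 0, 0 and 2 with median centring, lowess and quantile normalization, and the lower genes 5 (11.6%, beside 4.03% of all expressed genes) with median centring and 6 (14.0%, beside 3.56%) with lowess. Among genes past 1.5-fold, signs reversed with lowess for the age differences of Psmc1 (-0.0374) and Psmd12 (-0.18) in OVA and Psmd14 (-0.0131) in PBS, and 9 other age differences under 1.5-fold changed sign. The cause of these shifts was not tested. Probe sets near the floor, such as that of Psma8, limit the smallest differences.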
